A study of Homo sapiens with 12 samples.

Results

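The lysosome digests material that reaches it by endocytosis and autophagy. Its lumen holds acid hydrolases (proteases, glycosidases, sulfatases and lipid hydrolases) with their activators and lipid carriers, its membrane is lined by heavily glycosylated proteins and carries transporters and channels, and a proton pump, the V-ATPase, keeps the lumen acidic. Many of these genes carry the letters CACGTG near their start, a site read by transcription factors of the MiT/TFE family such as TFEB, which move to the nucleus when the mTORC1 kinase is less active. The genes examined here were 46 members of this system, chosen by symbol: 8 lysosomal membrane proteins, 10 cathepsins and other proteases, 10 glycosidases, 4 sulfatases and sulfamidases, 7 lipid hydrolases, lipid carriers and other lumenal proteins, and 7 V-ATPase subunits. The choice was made with earlier results of these data known. Each gene was read at its brightest probe. Of 20046 genes with a named probe on the array, 12748 could be tested at that probe, and 44 of the 46 members were among them.

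Both lines, SNU-5 and MKN45, derive from human gastric carcinoma and carry extra copies of the MET gene, whose receptor kinase is blocked by the small molecule crizotinib. The groups were SNU-5 with crizotinib (1 µM, 24 h), SNU-5 control, MKN45 with crizotinib (1 µM, 24 h) and MKN45 control, with 3 Illumina arrays in each group and no treatment in the controls. Dose and time are those of the sample records. SNU-5 was grown in Iscove's modified Dulbecco's medium and MKN45 in RPMI-1640, so that line and medium cannot be told apart. Whether the 3 arrays of a group were separate cultures is not stated, so each p-value is set against a spread that may be technical.

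Between 18998 and 20248 probes were detected per array, at a detection p under 0.05. Mean raw signals were 313 to 332 with crizotinib and 328 to 557 in controls for SNU-5, and 386 to 444 with crizotinib and 404 to 499 in controls for MKN45. SNU-5 control replicate 1 stood apart, with the highest mean signal (557) and correlations with the other SNU-5 controls as low as 0.964, and calls after crizotinib that changed without it are given beside the member. The epithelial label was checked on 11 measured markers, of which 10 were detected on at least 1 array of every group and GKN1, a stomach secretory gene, on none. Detected on all 3 arrays were 9 markers in SNU-5 with crizotinib, 8 in SNU-5 control, 10 in MKN45 with crizotinib and 9 in MKN45 control. CDH1, which encodes E-cadherin, was detected on 3 of 3 SNU-5 crizotinib arrays but on 1 of 3 SNU-5 control arrays. TFF3 was detected on 1 of 3 arrays in each SNU-5 group (mean log2 signal 4.86 with crizotinib and 4.68 in controls), and CLDN4 on 1 of 3 MKN45 control arrays. Summed signals of 9 fibroblast markers were 5152 to 6330 with crizotinib and 950 to 1658 in controls of SNU-5, led by the matrix proteoglycan LUM, with PDGFRB and THY1 detected on no array and the collagen gene COL1A2 going the other way (mean log2 signal 4.69 with crizotinib, detected on 0 of 3 arrays, and 7.94 in controls, on 3 of 3), and 87.7 to 95.2 with crizotinib and 67.8 to 79.4 in controls of MKN45. Summed signals of 12 leukocyte markers were 796 to 887 with crizotinib and 1379 to 1965 in controls of SNU-5, led by CD14 with PTPRC undetected, and 148 to 159 with crizotinib and 150 to 181 in controls of MKN45. The 8 endothelial markers summed to 42.5 to 66.1 in all groups. The part of these genes in the results below was not tested.

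All 44 tested members were detected on each of the 12 arrays, so that none entered the test through a single group. CD63, a tetraspanin of late endosomes, had no named probe in the annotation used and was not analysed here. CTSS, a cysteine protease best known from antigen-presenting cells, was detected on 2 of 12 arrays, which was below the minimum of 3. Its log2 signals were 4.80, 5.13 and 5.11 with crizotinib and 4.51, 4.38 and 4.51 in controls of SNU-5, and lay between 4.34 and 4.66 in MKN45.

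More of the lysosomal genes rose than fell after 24 h of crizotinib, in both lines. With limma, a change was called at an adjusted p (Benjamini-Hochberg, over all tested probes) under 0.05. In SNU-5, 22 of 44 members (50.0%) rose, 3 (6.82%) fell and 19 did not pass, where 18.0% of all tested genes rose and 17.2% fell. In MKN45, 14 members (31.8%) rose, 6 (13.6%) fell and 24 did not pass, against 17.9% and 17.9% of all tested genes. The median log2 change of the members was 0.56 in SNU-5 and 0.17 in MKN45, and that of all tested genes was 0.02 and 0.00. At the stricter thresholds named in the study's methods (p under 0.001, adjusted p under 0.05 and at least 2-fold), 11 members rose and 0 fell in SNU-5 (background 7.09% and 7.47%), and 4 rose and 1 fell in MKN45 (background 7.33% and 7.19%). The fall in MKN45 was that of CTSC, and the 4 rises were those of CLN3, GRN, MANBA and ARSA. All 3 crizotinib arrays lay above all 3 control arrays for 24 members in SNU-5 (54.5%, background 24.6%) and for 17 in MKN45 (38.6%, background 24.7%), and all below for 4 (9.09%, background 22.9%) and 7 (15.9%, background 24.4%). Without SNU-5 control replicate 1, 25 members rose and 3 fell in SNU-5, where 19.6% and 17.3% of all tested genes did, and 17 rose and 7 fell in MKN45, where 20.9% and 21.3% did.

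**Figure D1:**
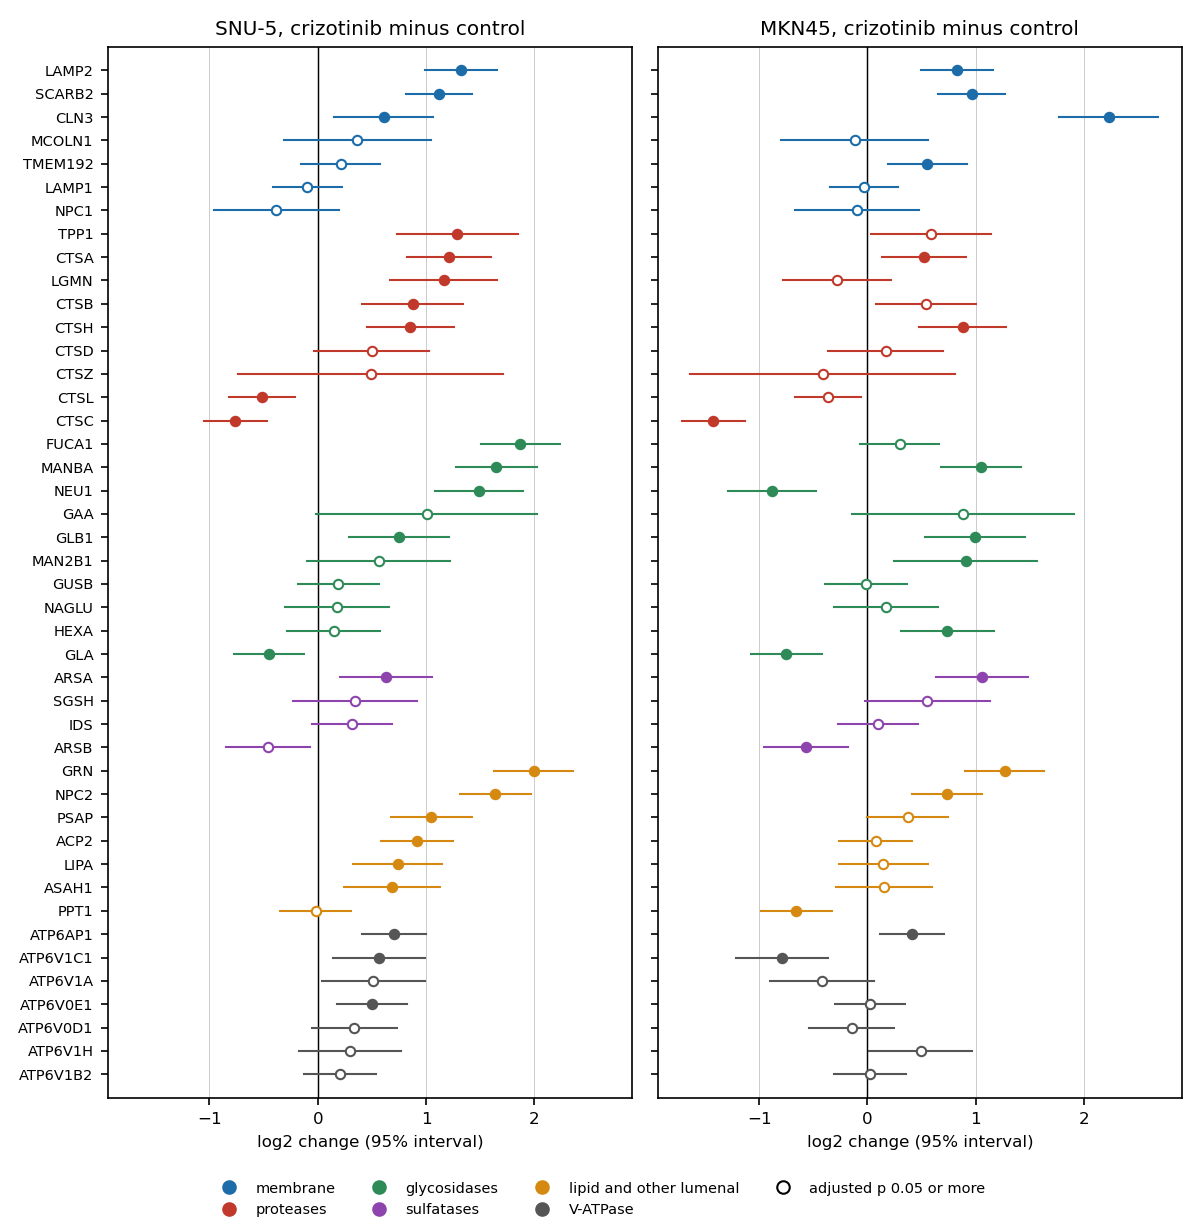
Log2 change (crizotinib minus control, x axis) of the 44 tested members in SNU-5 (left) and MKN45 (right), with 95% intervals from the limma fit and colours by role; filled points have an adjusted p under 0.05. The SNU-5 panel has 22 filled points right of 0 and 3 left of it, and the MKN45 panel 14 and 6.

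The membrane proteins did not move as a block. LAMP2 and SCARB2 rose in both lines, CLN3 rose more in MKN45, and LAMP1 passed the test in neither line. LAMP2, a coat protein of the lysosomal membrane with a splice form that acts in chaperone-mediated autophagy, had log2 signals of 10.72, 10.77 and 10.31 with crizotinib and 9.23, 9.45 and 9.15 in controls of SNU-5, and 9.92, 10.03 and 9.97 with crizotinib and 9.09, 9.21 and 9.14 in controls of MKN45. Every crizotinib array lay above every control array of its line, a 2.51-fold rise in SNU-5 (limma adjusted p = 2.6e-05, log2 change 1.33, standard error 0.15) and a 1.77-fold rise in MKN45 (log2 change 0.83, standard error 0.15, adjusted p = 0.0011). SCARB2, which carries the enzyme glucocerebrosidase to lysosomes, had 12.22, 12.25 and 12.14 with crizotinib and 10.82, 11.23 and 11.21 in controls of SNU-5, and 11.07, 11.05 and 11.06 with crizotinib and 10.05, 10.16 and 10.07 in controls of MKN45. Its rises were 2.17-fold (adjusted p = 5.6e-05) and 1.95-fold (adjusted p = 1.8e-04), and their difference had a 95% interval of -0.28 to 0.59 on the log2 scale.

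CLN3, a membrane protein that is mutated in juvenile Batten disease, had log2 signals of 8.43, 8.30 and 8.16 with crizotinib and 8.06, 7.59 and 7.41 in controls of SNU-5. In MKN45 it had 9.24, 9.54 and 8.98 with crizotinib and 6.82, 7.37 and 6.88 in controls. The groups were separate in both lines, by a wide gap in MKN45 and by 0.61 on average in SNU-5. The rise of 4.69-fold in MKN45 (log2 change 2.23, standard error 0.21, adjusted p = 4.5e-06) was the largest of any member there, and the rise in SNU-5 was 1.52-fold (adjusted p = 0.045), a call that was lost without any 1 of the SNU-5 crizotinib arrays, SNU-5 control replicate 2 or 3, MKN45 crizotinib replicate 1 or MKN45 control replicate 3 (highest adjusted p 0.15). LAMP1, another coat protein of the membrane, had 11.73, 11.77 and 11.59 with crizotinib and 12.02, 11.82 and 11.54 in controls of SNU-5, and 12.27, 12.36 and 12.21 with crizotinib and 12.34, 12.32 and 12.27 in controls of MKN45. The LAMP1 groups overlapped in both lines, with 95% intervals of the log2 change of -0.41 to 0.22 in SNU-5 and -0.35 to 0.29 in MKN45. TMEM192, a membrane protein used as a handle to isolate lysosomes, rose in MKN45 (log2 change 0.56, adjusted p = 0.022) and had a change of 0.21 in SNU-5 (adjusted p = 0.40). The cholesterol exporter NPC1 and the cation channel MCOLN1 passed in neither line.

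Among the proteases, 5 of 9 tested (55.6%) rose and 2 (22.2%) fell in SNU-5, and 2 (22.2%) rose and 1 (11.1%) fell in MKN45, beside shares over all tested genes of 18.0% and 17.2% in SNU-5 and of 17.9% and 17.9% in MKN45. CTSA, a carboxypeptidase that also shields the enzymes GLB1 and NEU1 from degradation, had log2 signals of 10.51, 10.40 and 10.26 with crizotinib and 9.51, 9.09 and 8.94 in controls of SNU-5, and 8.50, 8.75 and 8.45 with crizotinib and 7.96, 8.29 and 7.88 in controls of MKN45. The groups did not overlap in either line, and CTSA rose 2.31-fold in SNU-5 (log2 change 1.21, standard error 0.18, adjusted p = 1.9e-04) and 1.44-fold in MKN45 (log2 change 0.52, adjusted p = 0.041). The MKN45 call was lost when any 1 array was left out (highest adjusted p 0.15) other than SNU-5 control replicate 1 or 3 or MKN45 control replicate 2. TPP1, which removes tripeptides from the ends of proteins, had 9.90, 9.95 and 9.33 with crizotinib and 8.86, 8.43 and 8.01 in controls of SNU-5, and 7.96, 8.16 and 7.79 with crizotinib and 7.86, 7.18 and 7.10 in controls of MKN45. Its SNU-5 groups were separate (2.45-fold, adjusted p = 0.0018), while in MKN45 control replicate 1 lay among the crizotinib arrays (log2 change 0.59, adjusted p = 0.10). Without that array the TPP1 change in MKN45 was 0.83 (adjusted p = 0.031), a value that depends on leaving out the control that overlapped.

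LGMN, a protease that cuts after asparagine and matures several cathepsins, had log2 signals of 10.04, 10.23 and 9.94 with crizotinib and 9.44, 8.67 and 8.61 in controls of SNU-5. In MKN45 the values were 9.60, 9.69 and 9.43 with crizotinib and 9.49, 10.21 and 9.86 in controls. LGMN rose 2.24-fold in SNU-5 (log2 change 1.16, standard error 0.23, adjusted p = 0.0017), and its groups overlapped in MKN45 (log2 change -0.28, standard error 0.23, adjusted p = 0.42). The cysteine proteases CTSB and CTSH rose in SNU-5 by 0.88 and 0.85 (adjusted p = 0.0069 and 0.0033), and CTSH rose by 0.88 in MKN45 as well (adjusted p = 0.0025). The aspartic protease CTSD was not called, SNU-5 giving 0.50 (adjusted p = 0.15) and MKN45 giving 0.17 (adjusted p = 0.68).

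The other direction was seen for CTSC and CTSL. CTSC, a dipeptidyl peptidase that activates serine proteases of immune cell granules, had log2 signals of 8.04, 8.13 and 8.09 with crizotinib and 8.89, 8.84 and 8.81 in controls of SNU-5, and 9.71, 9.54 and 9.75 with crizotinib and 11.26, 11.05 and 10.96 in controls of MKN45. All crizotinib arrays lay below all controls in both lines, a 1.69-fold fall in SNU-5 (log2 change -0.76, standard error 0.14, adjusted p = 7.7e-04) and a 2.68-fold fall in MKN45 (log2 change -1.42, standard error 0.14, adjusted p = 4.5e-06). CTSL, a broad cysteine protease, had 10.80, 10.86 and 10.94 with crizotinib and 11.16, 11.56 and 11.43 in controls of SNU-5, and 9.36, 9.41 and 9.49 with crizotinib and 9.71, 9.81 and 9.82 in controls of MKN45. Its crizotinib arrays also lay below the controls in both lines, but only the SNU-5 fall was called (log2 change -0.52, adjusted p = 0.013, or 0.063 at most without SNU-5 crizotinib replicate 1 or SNU-5 control replicate 2), that in MKN45 being -0.36 (adjusted p = 0.070). The MKN45 fall was called as well once SNU-5 control replicate 1 was left out (adjusted p = 0.039), and a second CTSL probe gave -0.46 in SNU-5 (adjusted p = 0.054) and -0.49 in MKN45 (adjusted p = 0.042). CTSZ, a cysteine carboxypeptidase, had 8.16, 8.26 and 6.92 with crizotinib and 7.68, 7.89 and 6.31 in controls of SNU-5, and 6.92, 7.13 and 5.44 with crizotinib and 7.46, 7.46 and 5.81 in controls of MKN45. Replicate 3 was the lowest array in all 4 groups, and CTSZ was not called in either line (adjusted p = 0.59 and 0.66). With the replicate number added to the limma fit, CTSZ was called in both lines, in opposite directions. Its log2 change was 0.49 in SNU-5 (adjusted p = 0.019) and -0.41 in MKN45 (adjusted p = 0.042). Whether a replicate number stands for a shared culture or batch is not stated. Over all tested probes, the replicate 2 arrays of the SNU-5 groups correlated at 0.012 in their deviations from the group means.

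Of the 10 glycosidases, which strip sugars from glycoproteins and glycolipids, 4 rose and 1 fell in SNU-5 (background 18.0% and 17.2%), and 4 rose and 2 fell in MKN45 (background 17.9% each). MANBA, the beta-mannosidase, had log2 signals of 8.80, 8.74 and 8.32 with crizotinib and 7.18, 7.04 and 6.68 in controls of SNU-5, and 9.09, 9.24 and 9.02 with crizotinib and 7.98, 8.13 and 8.09 in controls of MKN45. The gap exceeded the spread between replicates in both lines, with a 3.14-fold rise in SNU-5 (log2 change 1.65, standard error 0.17, adjusted p = 1.0e-05) and a 2.07-fold rise in MKN45 (log2 change 1.05, standard error 0.17, adjusted p = 4.2e-04). GLB1, the lysosomal beta-galactosidase, had 11.69, 11.77 and 11.33 with crizotinib and 11.32, 10.64 and 10.59 in controls of SNU-5, and 11.24, 11.33 and 10.82 with crizotinib and 10.12, 10.25 and 10.04 in controls of MKN45. It rose 1.68-fold in SNU-5 (adjusted p = 0.017), where the highest control lay just under the lowest crizotinib array, and 1.99-fold in MKN45 (adjusted p = 0.0028). The SNU-5 call was lost without SNU-5 crizotinib replicate 1 or 2 or SNU-5 control replicate 2 or 3 (highest adjusted p 0.070).

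FUCA1, the alpha-fucosidase, had log2 signals of 9.49, 9.54 and 9.26 with crizotinib and 7.77, 7.64 and 7.26 in controls of SNU-5, and 9.19, 9.00 and 9.23 with crizotinib and 9.04, 8.79 and 8.69 in controls of MKN45. It rose 3.66-fold in SNU-5 (log2 change 1.87, standard error 0.17, adjusted p = 2.9e-06), with every crizotinib array above all 6 MKN45 arrays, and its groups overlapped in MKN45 (log2 change 0.30, standard error 0.17, adjusted p = 0.21). NEU1, the lysosomal sialidase, had 11.31, 11.49 and 10.92 with crizotinib and 10.01, 9.79 and 9.45 in controls of SNU-5. In MKN45 it was far dimmer, with 5.11, 4.95 and 4.93 with crizotinib and 5.77, 6.08 and 5.79 in controls. NEU1 rose 2.81-fold in SNU-5 (log2 change 1.49, standard error 0.19, adjusted p = 5.1e-05) and fell 1.84-fold in MKN45 (log2 change -0.88, standard error 0.19, adjusted p = 0.0027), with no overlap in either line. Its MKN45 crizotinib arrays lay close to the detection limit (detection p 0.014, 0.039 and 0.019), so that the size of the fall there is uncertain.

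HEXA, the alpha subunit of hexosaminidase A, and MAN2B1, the alpha-mannosidase, rose in MKN45 alone among the calls (log2 change 0.74 and 0.91, adjusted p = 0.012 and 0.038), with changes of 0.15 and 0.56 in SNU-5. Their difference between the lines was not called (limma adjusted p = 0.23 and 0.71). HEXA was dim in MKN45 controls, with log2 signals of 5.28, 5.35 and 5.27. GLA, the alpha-galactosidase, fell in both lines (log2 change -0.45 and -0.75, adjusted p = 0.038 and 0.0019), a call that in SNU-5 was lost without any 1 SNU-5 crizotinib array, SNU-5 control replicate 2 or MKN45 crizotinib replicate 1 (highest adjusted p 0.14). GAA, the acid alpha-glucosidase that breaks down glycogen, had log2 signals of 7.56, 7.60 and 7.20 with crizotinib and 8.01, 5.85 and 5.47 in controls of SNU-5, and 6.68, 7.38 and 6.79 with crizotinib and 5.94, 6.09 and 6.17 in controls of MKN45. The single high control, replicate 1, kept GAA from a call in SNU-5 (log2 change 1.01, standard error 0.47, adjusted p = 0.13), and in MKN45, where the groups did not overlap, the change was 0.89 (adjusted p = 0.19). Once SNU-5 control replicate 1 was left out, GAA was called in SNU-5 (log2 change 1.79, adjusted p = 2.5e-05, standard error 0.22) and also in MKN45 (0.89, adjusted p = 0.0024, standard error 0.19). Leaving out that array also brought MAN2B1 (log2 change 1.00), NAGLU (0.50), IDS (0.49), SGSH (0.72) and MCOLN1 (0.78) to a call in SNU-5.

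Of the 4 sulfatases and sulfamidases, which desulfate glycolipids and glycosaminoglycans, ARSA rose in both lines. ARSA, which acts on sulfatides, had log2 signals of 7.58, 7.84 and 7.37 with crizotinib and 6.85, 7.01 and 7.05 in controls of SNU-5, and 7.09, 6.96 and 6.85 with crizotinib and 5.71, 6.37 and 5.65 in controls of MKN45. The groups were separate, with a 1.55-fold rise in SNU-5 (log2 change 0.63, adjusted p = 0.027, up to 0.12 without SNU-5 crizotinib replicate 1 or 2 or SNU-5 control replicate 1 or 2) and a 2.08-fold rise in MKN45 (log2 change 1.06, standard error 0.20, adjusted p = 0.0011). SGSH, an enzyme of heparan sulfate breakdown, had 9.67, 9.63 and 9.28 with crizotinib and 9.92, 8.99 and 8.63 in controls of SNU-5, and 7.33, 7.70 and 7.23 with crizotinib and 6.91, 6.82 and 6.85 in controls of MKN45. Its SNU-5 groups overlapped through control replicate 1 (log2 change 0.35, adjusted p = 0.38), and in MKN45 it lay higher on every crizotinib array without passing (log2 change 0.56, adjusted p = 0.14, or 0.018 without SNU-5 control replicate 1). ARSB, which acts on dermatan sulfate, fell in MKN45 (log2 change -0.57, adjusted p = 0.027). In SNU-5 its crizotinib arrays also lay below the controls, without a call (log2 change -0.46, adjusted p = 0.073). Further, dimmer ARSB probes gave 0.06 and -0.16 in MKN45 (adjusted p = 0.90 and 0.58).

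The lipid hydrolases, lipid carriers and other lumenal proteins rose in 6 of 7 cases in SNU-5 (85.7%, background 18.0%), and in MKN45 2 of 7 rose and 1 fell (28.6% and 14.3%, background 17.9% each). The SNU-5 change exceeded the MKN45 change for all 7, by 0.53 to 0.91 on the log2 scale, and for 2 of them the difference was called. GRN encodes progranulin, a glycoprotein that is cut to granulins in the lysosome. Its log2 signals were 11.36, 11.38 and 11.01 with crizotinib and 9.29, 9.21 and 9.27 in controls of SNU-5, and 10.49, 10.50 and 10.26 with crizotinib and 8.82, 9.34 and 9.29 in controls of MKN45. Crizotinib and control arrays were far apart in both lines, with a 3.98-fold rise in SNU-5 (log2 change 1.99, standard error 0.17, adjusted p = 1.9e-06), the largest of any member there, and a 2.41-fold rise in MKN45 (log2 change 1.27, standard error 0.17, adjusted p = 8.5e-05). NPC2, which hands cholesterol to NPC1 for export, had 12.78, 12.87 and 12.68 with crizotinib and 10.87, 11.26 and 11.29 in controls of SNU-5, and 12.70, 12.69 and 12.58 with crizotinib and 11.78, 12.00 and 11.97 in controls of MKN45. NPC2 rose 3.12-fold in SNU-5 (log2 change 1.64, standard error 0.15, adjusted p = 3.5e-06) and 1.66-fold in MKN45 (log2 change 0.74, standard error 0.15, adjusted p = 0.0022), and with crizotinib the ranges of the lines overlapped. Its receptor NPC1 was not called, at -0.38 in SNU-5 and -0.10 in MKN45 on the log2 scale (adjusted p = 0.32 and 0.84).

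PSAP, the precursor of the saposins that help hydrolases reach their lipid substrates, had log2 signals of 13.43, 13.57 and 13.16 with crizotinib and 12.52, 12.37 and 12.13 in controls of SNU-5, and 12.98, 13.19 and 12.78 with crizotinib and 12.41, 12.76 and 12.66 in controls of MKN45. It rose 2.07-fold in SNU-5 (log2 change 1.05, standard error 0.17, adjusted p = 4.6e-04), and the MKN45 groups, separate by a narrow margin, gave 0.38 (adjusted p = 0.13). ACP2, the lysosomal acid phosphatase, had 8.55, 8.54 and 8.60 with crizotinib and 7.73, 7.81 and 7.40 in controls of SNU-5, and 7.32, 7.05 and 6.94 with crizotinib and 7.02, 7.13 and 6.92 in controls of MKN45. It rose in SNU-5 (log2 change 0.92, standard error 0.16, adjusted p = 5.4e-04) and overlapped in MKN45 (log2 change 0.08, adjusted p = 0.78). The acid lipase LIPA and the acid ceramidase ASAH1 rose in SNU-5 (log2 change 0.74 and 0.69, adjusted p = 0.0092 and 0.022), with changes of 0.15 each in MKN45, and the ASAH1 call was lost without any 1 SNU-5 crizotinib array or SNU-5 control replicate 1 (highest adjusted p 0.065). PPT1, which removes fatty acids from proteins, had a change of -0.02 in SNU-5 and fell in MKN45 (log2 change -0.66, adjusted p = 0.0046).

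**Figure D2:**
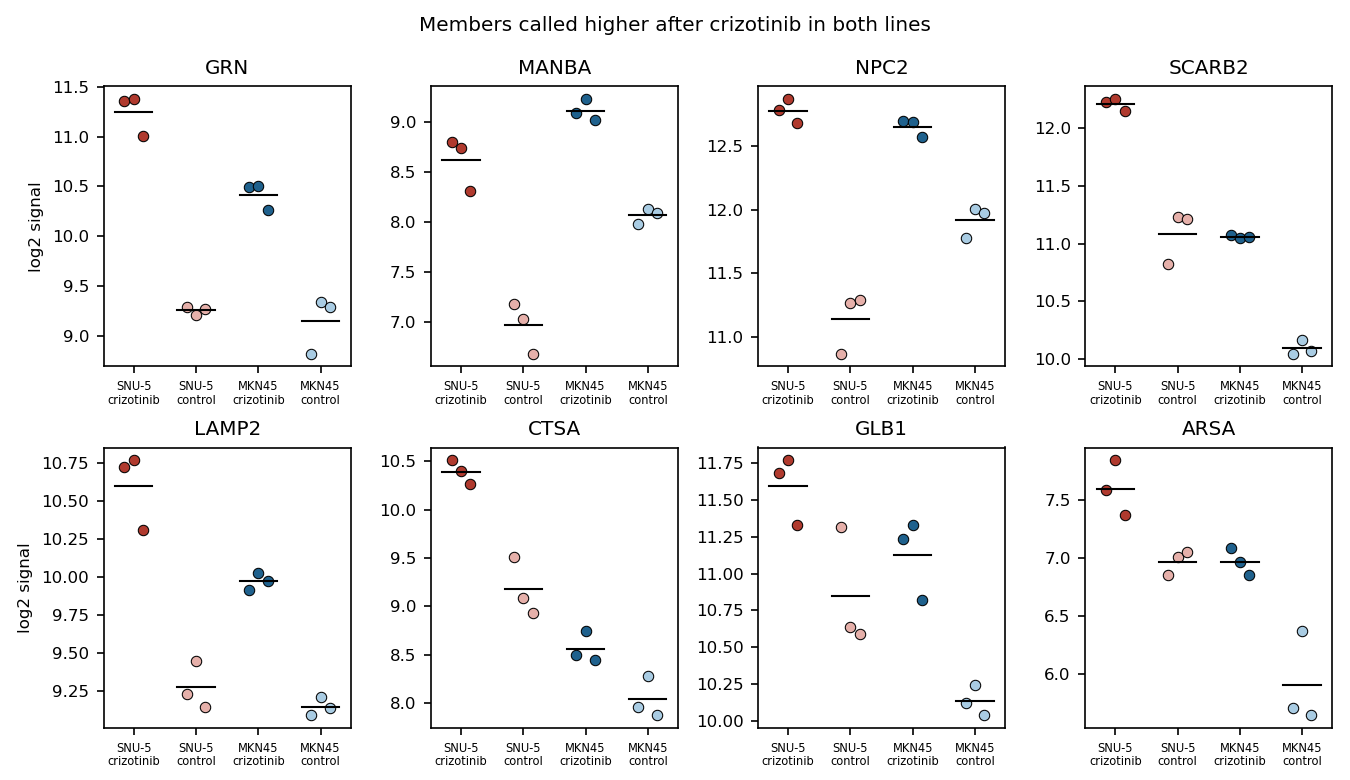
Log2 signal (y axis, a scale of its own in each panel) of 8 of the 11 members that rose in both lines, on the 3 arrays of each group (points) with the group mean (line). In each panel the crizotinib arrays lie above the control arrays of the same line, as for GRN with 11.01 to 11.38 against 9.21 to 9.29 in SNU-5.

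The V-ATPase pumps protons with a soluble part, V1, that splits ATP and a membrane part, V0. Of its 7 subunits tested, 3 rose (42.9%, background 18.0%) in SNU-5, where the log2 changes ran from 0.20 to 0.71, and 1 rose and 1 fell (14.3% each, background 17.9% each) in MKN45, where they ran from -0.79 to 0.49. No subunit reached 2-fold in either line. ATP6AP1, an accessory subunit needed for assembly, had log2 signals of 12.63, 12.59 and 12.56 with crizotinib and 11.87, 11.86 and 11.94 in controls of SNU-5, and 12.37, 12.45 and 12.32 with crizotinib and 11.75, 12.07 and 12.08 in controls of MKN45. The replicates were tight and the groups separate, with a rise of 1.63-fold in SNU-5 (log2 change 0.71, standard error 0.14, adjusted p = 0.0015) and 1.33-fold in MKN45 (log2 change 0.41, adjusted p = 0.035, up to 0.12 without any 1 MKN45 crizotinib array, MKN45 control replicate 1 or SNU-5 crizotinib replicate 1). ATP6V1C1, which helps hold V1 on V0, had 7.20, 7.08 and 7.07 with crizotinib and 6.56, 6.65 and 6.45 in controls of SNU-5, and 5.68, 5.79 and 6.06 with crizotinib and 7.10, 6.54 and 6.26 in controls of MKN45. It rose in SNU-5 (log2 change 0.56, standard error 0.20, adjusted p = 0.044, up to 0.13 without any 1 SNU-5 array, MKN45 crizotinib replicate 1 or 2 or MKN45 control replicate 2) and fell in MKN45 (log2 change -0.79, standard error 0.20, adjusted p = 0.0075), again with no overlap in either line. The catalytic subunit ATP6V1A, the V1 subunits ATP6V1B2 and ATP6V1H and the V0 subunit ATP6V0D1 passed in neither line with all arrays. Without SNU-5 control replicate 1, ATP6V1H was called in MKN45 (log2 change 0.49, adjusted p = 0.043).

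Set side by side, 11 members (25.0%) rose in both lines, where 9.10% of all tested genes did so: LAMP2, SCARB2, CLN3, CTSA, CTSH, GLB1, MANBA, ARSA, NPC2, GRN and ATP6AP1. Only CTSC and GLA (4.55%) fell in both, against 10.1% of all tested genes. NEU1 and ATP6V1C1 (4.55%) rose in SNU-5 and fell in MKN45, a pattern of 0.557% of all tested genes, and 0 members showed the opposite one (background 0.369%). To compare the lines, the MKN45 change was subtracted from that of SNU-5 and the remainder tested. It was above 0 for 32 members and below 0 for 12, and was called positive for 7 (15.9%, background 5.81%) and negative for 1 (2.27%, background 6.14%). At the 2-fold thresholds these counts were 4 and 1 (background 3.31% and 3.44%).

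NEU1 had the largest difference, 2.37 on the log2 scale (standard error 0.27, limma adjusted p = 8.4e-05). It was followed by FUCA1 with 1.57 (standard error 0.24, adjusted p = 8.9e-04), LGMN with 1.45 (standard error 0.32, adjusted p = 0.012) and ATP6V1C1 with 1.35 (standard error 0.28, adjusted p = 0.0072). NPC2 differed by 0.91 (adjusted p = 0.016) and ACP2 by 0.84 (adjusted p = 0.028). For CTSC the difference of 0.66 (adjusted p = 0.045) stood for a smaller fall in SNU-5. CLN3 was the one member with a called difference in the other direction, -1.62 (standard error 0.30, adjusted p = 0.0036). The 6 calls other than those for ACP2 and CTSC were kept whichever array was left out. The ACP2 call was lost without any 1 SNU-5 crizotinib array, SNU-5 control replicate 3, MKN45 crizotinib replicate 2 or 3 or MKN45 control replicate 2 (highest adjusted p 0.070). The CTSC call was lost when any 1 array was left out other than SNU-5 control replicate 1, MKN45 crizotinib replicate 3 or MKN45 control replicate 3 (highest adjusted p 0.11). GRN, the member with the largest rise in SNU-5, differed by 0.73 with a 95% interval of 0.21 to 1.25 and was not called (adjusted p = 0.079). CTSA joined the called differences once SNU-5 control replicate 1 was left out (0.85, adjusted p = 0.028).

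**Figure D3:**
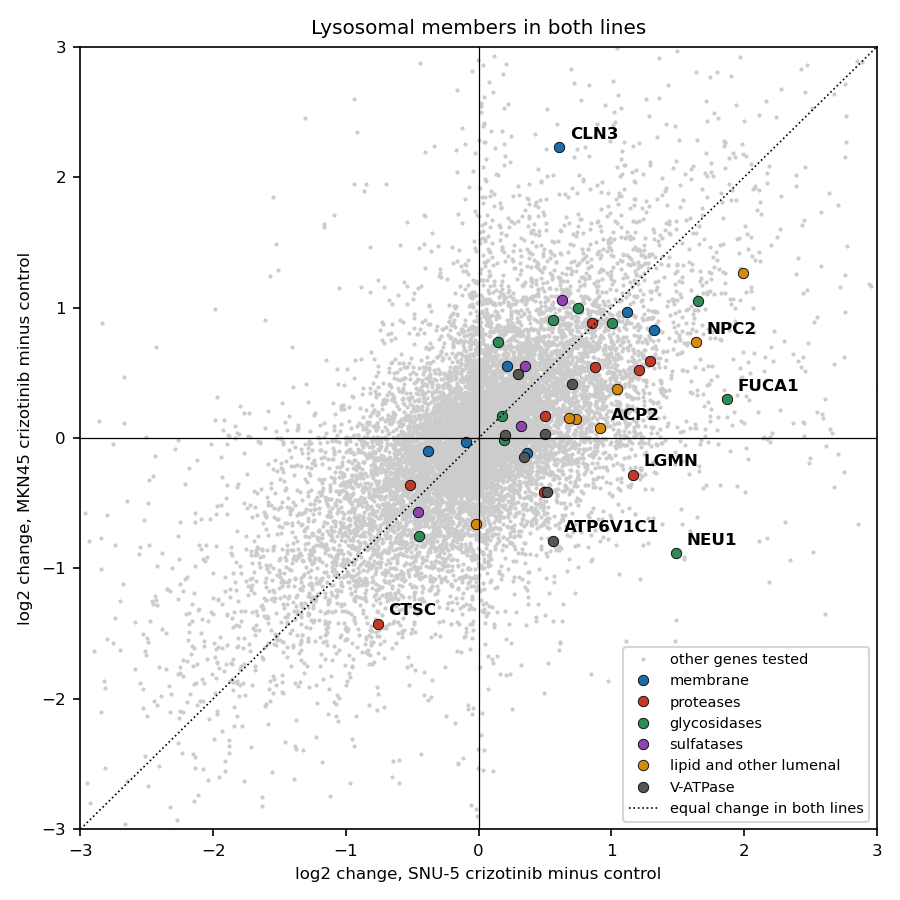
Log2 change in SNU-5 (x axis) against log2 change in MKN45 (y axis) of the tested members, coloured by role, over the other tested genes (grey; 108 genes lie outside the axes). The 8 named members are those whose change differed between the lines, with CLN3 above the dotted line of equal change and the others below it.

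**Figure D4:**
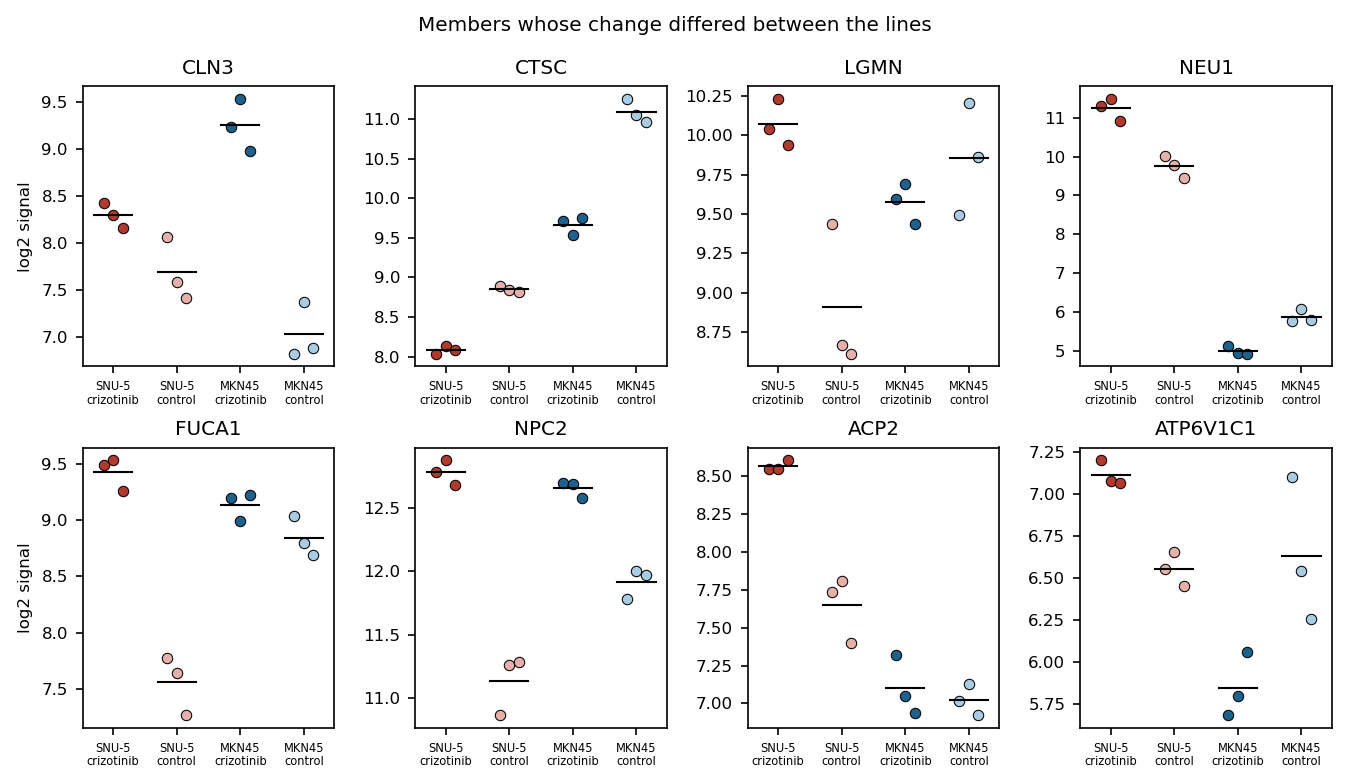
Log2 signal (y axis, a scale of its own in each panel) of the 8 members whose change differed between the lines, on the 3 arrays of each group (points) with the group mean (line). NEU1 lay at 10.92 to 11.49 with crizotinib and 9.45 to 10.01 in controls of SNU-5, and at 4.93 to 5.11 with crizotinib and 5.77 to 6.08 in controls of MKN45.

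Before any drug the lines already differed in these genes. With SNU-5 control set against MKN45 control, 18 members (40.9%, background 22.7%) were higher in SNU-5 and 13 (29.5%, background 22.5%) were lower, and the median difference was 0.24, against -0.0040 over all tested genes. At the 2-fold thresholds 8 were higher and 8 lower (18.2% each, background 10.9% and 10.7%), and all 3 SNU-5 control arrays lay above all 3 MKN45 control arrays for 19 members (43.2%, background 25.9%) and below them for 12 (27.3%, background 25.8%). NEU1 was 14.6-fold higher in SNU-5 controls (log2 difference 3.87, standard error 0.19, limma adjusted p = 1.9e-09). CTSD was 6.03-fold, SGSH 4.99-fold, CTSB 4.25-fold and CTSL 3.04-fold higher. CTSH was 5.72-fold and CTSC 4.73-fold lower in SNU-5 controls (log2 difference -2.52 and -2.24, adjusted p = 1.4e-07 and 1.7e-08). GUSB, the beta-glucuronidase, was also lower (log2 difference -1.32), as were ATP6V1A (2.49-fold), FUCA1 (2.43-fold), MANBA (2.14-fold) and GLA (2.11-fold). GRN and ATP6AP1 had differences of 0.10 and -0.08 (adjusted p = 0.68 and 0.71), with 95% intervals of -0.26 to 0.47 and -0.37 to 0.22.

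Further probes were tested for 18 of the members, 27 probes in all. Where the brightest probe was called, the other probe was called in the same direction in 14 of 21 cases in SNU-5 and 8 of 16 in MKN45, and was opposite in sign in 1 and 3 cases, none of them called. GRN and CLN3 had the same pattern at their second probe, GRN rising by 2.13 (SNU-5) and 1.38 (MKN45) and CLN3 by 0.76 and 2.03 on the log2 scale. Dimmer second probes of CTSH, ARSA and ASAH1 were not called in SNU-5 (log2 change 0.12, 0.26 and 0.19, limma adjusted p = 0.68, 0.54 and 0.49). In MKN45 the second CTSH probe rose by 0.53 (adjusted p = 0.033), and that of ARSA gave 0.63 (adjusted p = 0.10). LAMP2, a gene with splice forms that end differently, had 6 probes, all positive in SNU-5 (0.46 to 1.66). In MKN45 3 LAMP2 probes rose (0.83, 0.74 and 0.52) and the other 3 gave 0.23, -0.15 and -0.16. CTSC fell at 2 of 3 further probes in both lines (log2 change -1.06 and -0.84 in SNU-5, -0.97 and -1.30 in MKN45), where its difference between the lines was not called (-0.09 and 0.47, adjusted p = 0.89 and 0.37). The second LGMN probe gave a difference between the lines of 1.00 (adjusted p = 0.14), and a dim second probe of ATP6V1C1, detected on 9 arrays, gave changes of -0.16 and -0.30 that were not called. NEU1, FUCA1, NPC2 and ACP2 had a single probe.

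Promoters were read from RefSeq (GRCh38.p14), 250 bases before to 50 after each gene's start, and 30 of the 46 members had an entry. The letters CACGTG, the same on both strands, stood in 9 of 30 member promoters (30.0%), in 10.0% of the promoters of tested genes and in 7.43% of all promoters in the table. The longer forms TCACGTGA and GTCACGTGAC, which contain it, stood in 6 (20.0%) and 2 (6.67%) of the member promoters, against 1.90% and 0.782% for tested genes. CACGTG stood in 2 of the 8 promoters of members that rose in both lines (25.0%) and in 5 of the 14 promoters of tested members that rose in neither with all arrays (35.7%). The latter include GAA and MCOLN1, which were called higher in SNU-5 once SNU-5 control replicate 1 was left out. A match is a description of the letters and not of a bound site. The stretches below show where the letters lie (in capitals) in the 3 members that were called in both lines and have them, CLN3, CTSA and NEU1. CLN3 has a second match, not shown, that begins 1 base before the start.
CLN3, minus strand, chr16:28492075-28492134: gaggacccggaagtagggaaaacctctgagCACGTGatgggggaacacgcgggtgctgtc
CTSA, plus strand, chr20:45891274-45891333: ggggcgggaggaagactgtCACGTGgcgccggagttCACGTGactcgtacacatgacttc
NEU1, minus strand, chr6:31862915-31862974: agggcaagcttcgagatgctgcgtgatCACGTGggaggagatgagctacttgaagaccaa

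Members that were not called also held these letters. LAMP1 has 6 matches in its 300 bases, 4 of them shown, and its log2 change was -0.09 (SNU-5) and -0.03 (MKN45), and GAA and MCOLN1 have the longest form and were called in neither line with all arrays. These 3 were chosen after their values were seen, and are shown for comparison with the sequences of the called members.
LAMP1, plus strand, chr13:113297045-113297104: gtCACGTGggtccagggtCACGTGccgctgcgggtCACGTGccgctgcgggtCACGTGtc
GAA, plus strand, chr17:80101500-80101559: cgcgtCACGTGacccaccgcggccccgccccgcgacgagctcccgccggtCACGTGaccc
MCOLN1, plus strand, chr19:7522564-7522623: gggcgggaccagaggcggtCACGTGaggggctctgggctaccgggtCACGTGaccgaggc

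Other genes of the same system were taken from 7 lists, also chosen with earlier results of these data known. The shares to set their counts against are those over all tested genes, 18.0% higher and 17.2% lower in SNU-5 and 17.9% higher and 17.9% lower in MKN45. Other lysosomal hydrolases and lumenal proteins had 14 of 30 tested higher and 0 lower in SNU-5, and 9 higher and 2 lower in MKN45. The cysteine protease CTSV rose by 2.41 in SNU-5 and 0.59 in MKN45 on the log2 scale (adjusted p = 2.1e-07 and 0.011), and the acid nuclease DNASE2 by 2.30 and 0.74 (adjusted p = 2.3e-07 and 0.0022). NAAA, an acid amidase, had the reverse order, with 0.59 in SNU-5 and 2.41 in MKN45 (adjusted p = 0.025 and 5.9e-07, difference adjusted p = 5.5e-04). Other lysosomal membrane transporters and channels had 13 of 30 higher and 4 lower in SNU-5, and 5 higher and 3 lower in MKN45. Among them LMBRD1, which exports vitamin B12, rose by 1.70 and 0.99 (adjusted p = 9.3e-06 and 7.6e-04), and SIDT2, a protein of the lysosomal membrane, by 1.25 and 1.39 (adjusted p = 8.8e-04 and 3.9e-04).

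The remaining V-ATPase subunits and assembly factors went both ways, with 4 of 17 higher and 4 lower in SNU-5 (23.5% each) and 3 and 3 in MKN45 (17.6% each), shares near those over all tested genes (18.0% and 17.2%, 17.9% and 17.9%). The assembly factor VMA22 rose by 1.53 in SNU-5 and 0.82 in MKN45 (adjusted p = 8.3e-06 and 0.0013). ATP6V0A2, a V0 subunit, had log2 changes of -1.33 and -0.95 (adjusted p = 1.8e-05 and 3.0e-04), and the assembly factor VMA21 had -0.55 and -1.09 (adjusted p = 0.0048 and 2.6e-05). Genes of mannose 6-phosphate sorting, which delivers new hydrolases to the lysosome, had 3 of 21 higher (14.3%) and 1 lower (4.8%) in SNU-5 and 2 and 2 in MKN45 (9.5% each), all below the shares over all tested genes. GNPTAB, which makes the mannose 6-phosphate tag, fell in MKN45 (log2 change -0.61, adjusted p = 0.0098) and had 0.42 in SNU-5 (adjusted p = 0.065).

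Of 28 genes of the MiT/TFE factors and of mTORC1 at the lysosome, 8 were higher and 4 lower in SNU-5, and 7 higher and 1 lower in MKN45. RRAGB, a small GTPase that brings mTORC1 to the lysosome, rose by 1.24 in SNU-5 and 1.40 in MKN45 (adjusted p = 3.9e-05 and 1.4e-05), and SESN1, an inhibitor of mTORC1 signalling, by 1.21 and 1.66 (adjusted p = 1.3e-04 and 8.7e-06). DEPTOR, a subunit that restrains mTOR, fell in SNU-5 (log2 change -0.91, adjusted p = 0.0030) and rose by 2.35 in MKN45 (adjusted p = 1.5e-06), a difference of -3.26 (adjusted p = 9.5e-06). TFE3 and MITF, named after their values were seen, were not called in either line (log2 change -0.25 and -0.06 in SNU-5, 0.01 and 0.48 in MKN45). MITF was undetected on 6 of 12 arrays, with mean log2 signals of 4.59 with crizotinib and 4.65 in controls of SNU-5. TFEB was detected on 3 of 12 arrays. Lysosome fusion and positioning had 8 of 19 higher and 1 lower in SNU-5 and 7 higher and 0 lower in MKN45, among them BORCS7, a subunit of the BORC complex that moves lysosomes, with 1.30 and 1.12 (adjusted p = 0.0012 and 0.0032). Of 13 listed cystatins and other cathepsin inhibitors only 5 could be tested, too few to set a share against the background. In each line 0 rose and 1 fell (20.0%, beside 17.2% of all tested genes in SNU-5 and 17.9% in MKN45). SERPINB1 fell in SNU-5 (log2 change -0.81, limma adjusted p = 0.0039) and had -0.01 in MKN45 (adjusted p = 0.99). CSTB, an inhibitor of cathepsins in the cytosol, had -0.09 in SNU-5 (adjusted p = 0.67) and fell by 1.27 on the log2 scale in MKN45 (adjusted p = 9.0e-06).

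**Figure D5:**
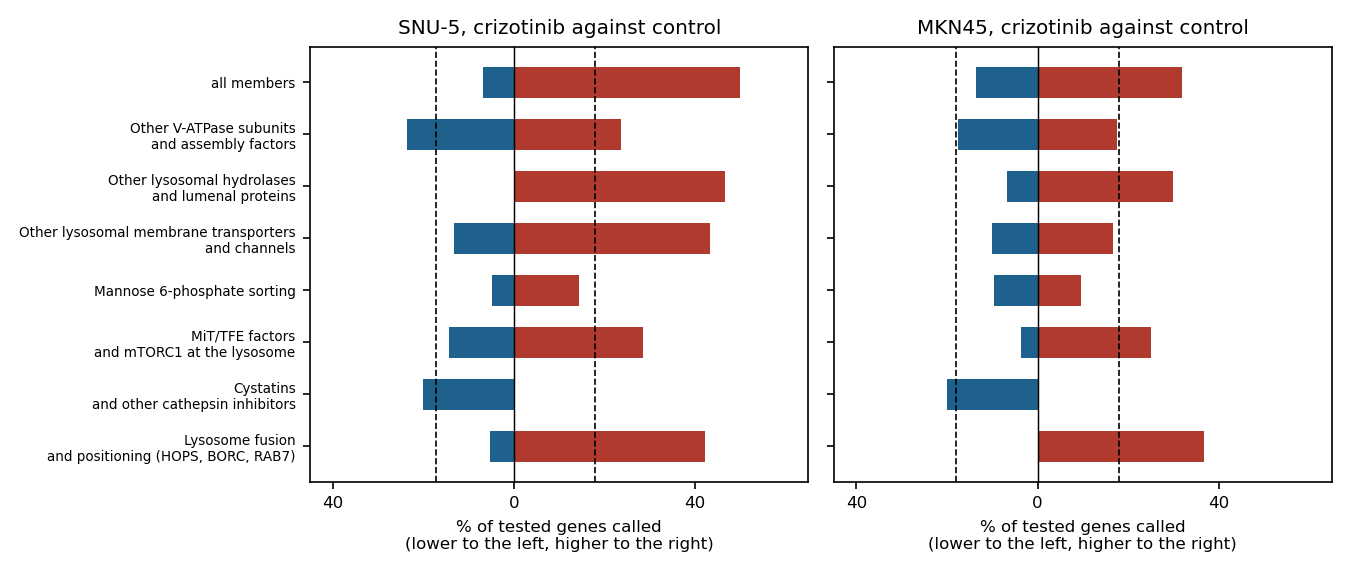
Percent of tested genes called higher (red, to the right) and lower (blue, to the left) after crizotinib in SNU-5 (left) and MKN45 (right), for the members and 7 lists of related genes, with dashed lines at the percentages over all tested genes. The members reach 50.0% higher in SNU-5 and 31.8% in MKN45, where the dashed lines stand at 18.0% and 17.9%.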

How the data were processed

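The authors deposited bead signal intensities of 47323 probes for 12 arrays, not normalized, with a detection p-value per probe, and log2 values that they had quantile normalized with limma. The scanner software is not given in the sources used. A quantile normalization of the deposited intensities came within 0.0503 of these log2 values. R 4.3.3 and limma 3.58.1 were used here on the intensities (neqc: background correction from the detection p-values, offset 16, quantile normalization, log2). Tested were the 23525 probes (49.7%) detected at p under 0.05 on 3 arrays or more, in 1 fit of 4 group means (lmFit and eBayes, 8 residual degrees of freedom, prior 5.17). Probes were named through the platform annotation (30113 with 1 symbol, 8 with several, 17202 with none), and the probe with the highest mean was used. All calls use Benjamini-Hochberg adjustment within a contrast. The number of arrays limits the precision. Procedures were tested on simulated data. The members and lists were chosen with earlier results of these data known. Members were named with full values if called at the 2-fold thresholds, if the lines differed, or if brightest of a role, and GAA and CTSZ after their values were seen. For each list, genes among the 4 with the smallest adjusted p were named. Alternatives were the deposited values, no background correction, no filter, the mean of all probes, a fit per line, a replicate block, the methods' t-test (random variance) and leaving out each array.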

Additional observations from a re-analysis of the deposited data

Results flagged for a closer look

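The change after crizotinib differed between SNU-5 and MKN45 for 8 members, by limma's test of the difference of the 2 changes (SNU-5 less MKN45). The differences on the log2 scale were 2.37 for NEU1, 1.57 for FUCA1, 1.45 for LGMN, 1.35 for ATP6V1C1, 0.91 for NPC2, 0.84 for ACP2, 0.66 for CTSC and -1.62 for CLN3. For NEU1 and ATP6V1C1 every crizotinib array lay above the SNU-5 controls and below the MKN45 controls of its own line. For LGMN, FUCA1 and ACP2 the MKN45 groups overlapped. Line and culture medium cannot be told apart in any of these differences.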

How the results depend on the processing

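The counts of members that rose and fell were 22 and 3 in SNU-5 and 14 and 6 in MKN45, with 7 and 1 members differing between the lines in the positive and the negative direction, and 18 and 13 higher and lower in untreated SNU-5 than in untreated MKN45. With the methods' 2-fold thresholds they were 11 and 0, 4 and 1, 4 and 1, and 8 and 8. With the methods' t-test at these thresholds, an alternative chosen after seeing the data, 9 rose and 0 fell in SNU-5 and 4 and 1 in MKN45, and with its Benjamini-Hochberg adjusted p alone 20 and 2, and 15 and 6. When each of the 12 arrays was left out in turn, the counts ran from 16 to 25 and from 1 to 5 in SNU-5, from 10 to 17 and from 5 to 7 in MKN45, from 5 to 8 and from 1 to 1 for the difference between the lines, and from 16 to 19 and from 11 to 14 between the untreated lines. The count of 3 that fell in SNU-5 was 1 (CTSC) without SNU-5 crizotinib replicate 1 or SNU-5 control replicate 2, and 5 (with NPC1 and ARSB) without SNU-5 control replicate 3. Of the 22 rises in SNU-5, 16 were kept in all 12 of these fits. The others were CLN3, GLB1, ARSA, ATP6V1C1, ASAH1 (lost without any 1 SNU-5 crizotinib array or SNU-5 control replicate 1, highest adjusted p 0.065) and ATP6V0E1 (without SNU-5 crizotinib replicate 1 or 2 or SNU-5 control replicate 3, 0.083). GLA kept its fall in SNU-5 in 7 of the 12 (adjusted p up to 0.14 without any 1 SNU-5 crizotinib array, SNU-5 control replicate 2 or MKN45 crizotinib replicate 1). Of the 14 rises in MKN45, 10 were kept in all 12, the others being CTSA, ATP6AP1, TMEM192 (lost without MKN45 crizotinib replicate 1 or 2 or MKN45 control replicate 1, 0.085) and MAN2B1 (without SNU-5 or MKN45 crizotinib replicate 1 or 2 or any 1 MKN45 control, 0.14). ARSB lost its fall in MKN45 without any 1 MKN45 crizotinib array or MKN45 control replicate 2 or 3 (0.10). The signs of 5 small changes turned. Without SNU-5 control replicate 1 LAMP1 gave 0.017 in SNU-5 (range over the 12 fits -0.22 to 0.017) and 0.049 for the difference (-0.19 to 0.049), and SGSH 0.16 for the difference (-0.49 to 0.16). LAMP1 gave 0.0030 in MKN45 without MKN45 crizotinib replicate 3 (-0.074 to 0.0030), and ACP2 -0.030 in MKN45 without MKN45 crizotinib replicate 1 (-0.030 to 0.16). The mean of all tested probes lost the calls of LAMP2 in MKN45 (log2 change 0.33) and of ATP6V1C1 and ARSA in SNU-5 (0.20 and 0.45), and of CTSC and ATP6V1C1 for the difference (0.32 and 0.75). The deposited values gave the main counts except 9 positive differences (GRN and PPT1 added), and no filter on dim probes gave 21 and 3 in SNU-5 and 12 and 7 in MKN45. Same-numbered arrays correlated in their deviations from the group means at 0.105, 0.012 and 0.449 in SNU-5 and 0.113, 0.329 and 0.111 in MKN45. SNU-5 crizotinib replicate 2 correlated best with control replicate 1, and the main fit did not pair arrays by number. Whether a number stands for a shared culture or batch is not stated in the sources used. With a replicate block 23 members rose and 3 fell in SNU-5, 15 and 7 in MKN45, 7 and 1 differed between the lines, and 19 and 13 between the untreated lines. The block added CTSZ to the calls in SNU-5 (log2 change 0.49, adjusted p = 0.019) and in MKN45 (-0.41, adjusted p = 0.042), and TPP1 in MKN45 (0.59, adjusted p = 0.026). For the difference between the lines it added CTSZ (0.90, adjusted p = 0.013) and took away CTSC (adjusted p = 0.054).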
